A study of Arabidopsis thaliana with 10 samples.

Results

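The flu mutant of Arabidopsis thaliana was compared with wild type after plants had been returned from darkness to light, in 4 of the 10 ATH1 arrays of the study, 2 of each genotype. FLU is a plastid protein that holds back chlorophyll synthesis in the dark. Without it protochlorophyllide, the light-sensitive precursor of chlorophyllide, builds up at night, and when light returns this pigment passes energy to oxygen and makes singlet oxygen inside the plastid. Singlet oxygen is short-lived, and its known effects on nuclear genes in this mutant pass through the plastid proteins EXECUTER1 and EXECUTER2, both intact in the 2 genotypes compared here.

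Wild type was Columbia (Col-0). The flu plants carried the flu1-1 allele, made in Landsberg erecta and crossed back 5 times to Columbia, with no transgene named in the labels. Plants of both genotypes grew on soil in continuous light at 100 µmol m-2 s-1 until bolting started, were put in the dark for 8 h and were harvested after 30 min of light. Each array held RNA of rosette leaves pooled from 5 mature plants and was labelled a biological replicate. No array was made of plants still in the dark, so a difference already present before the light cannot be told apart from one that followed it. In such bulk material fewer cells of a type and less RNA per cell cannot be told apart either.

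RNA level was read as the deposited signal of 22746 probe sets, of which 14435 were bright enough to be tested (at or above the 40th percentile of the array on at least 2 of the 10 arrays). Differences are log2 of flu over wild type with limma's standard error. The fit shared its estimate of spread among all 10 arrays and let it follow the signal level (the intensity trend). A probe set is called when limma's adjusted p, taken over all 14435, is under 0.05. The arrays of one genotype correlated at 0.981 (wild type) and 0.985 (flu) across probe sets. Rubisco activase RCA, the leaf marker with a probe set of its own, read 15260 to 21041 on the 4 arrays, and the root hair expansin genes EXPA7 and EXPA18 read 23.1 to 39.3, below the level of the filter. FAMA, a guard cell gene, read 235 to 258. Markers of flowers, pollen and seeds were not used here, as none had an assigned probe set, and FLU, the mutated gene, is not analysed here for the same reason. A poly-A control RNA added to the samples read low on wild type 1 and flu 2 (515 and 532) and high on wild type 2 and flu 1 (926 and 956), so that each level held 1 array of each genotype. Precision is limited by the number of arrays: with 2 per genotype the smallest two-sided p that an exact permutation could reach is 0.333.

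Singlet oxygen release went with a response that was mostly upward and small in the number of genes. In flu 408 probe sets were higher (2.83% of those tested) and 147 were lower (1.02%), together 3.84%. With only the 4 arrays compared in the fit these counts were 495 and 236, and with the level of the control RNA as a block 491 and 239. At 2-fold or more 256 were higher (1.77%) and 55 lower (0.381%). Thus 62.7% of the higher but 37.4% of the lower probe sets differed by at least 2-fold, 56 against 7 by at least 4-fold, and 20 against 4 by at least 8-fold. The bulk of the transcriptome stayed close to wild type: the median difference over all tested probe sets was -0.04, with quartiles of -0.21 and 0.15, and 97.2% lay within 2-fold.

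The probe sets called higher started from a median level not far below that of all tested ones. Their median signal was 353 in wild type and 876 in flu, and over all tested probe sets it was 413 in wild type. For 38 of those called higher both wild type arrays were below the filter level, as were the flu arrays for 2 of these. This count was not set against all tested probe sets. Those called lower had a median signal of 776 in wild type and 419 in flu. As a share of all tested signal, the probe sets called higher held 1.85% and 1.83% on the wild type arrays and 4.07% and 4.2% on the flu arrays. The lower ones went from 1.80% and 1.77% to 0.971% and 0.909%. These sums describe the called sets and are not tests of them.

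**Figure D1:**
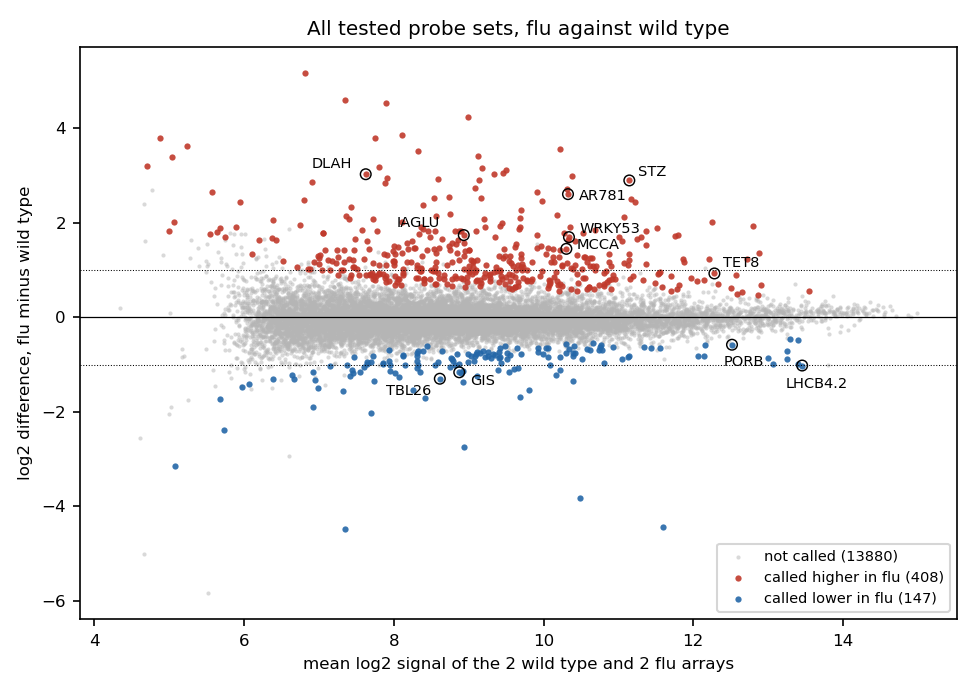
Each point is 1 of the 14435 tested probe sets, with its mean log2 signal over the 4 arrays on the x axis and its log2 difference, flu minus wild type, on the y axis. The median difference is 1.15 for the 408 probe sets called higher (red) and -0.88 for the 147 called lower (blue). Dotted lines mark 2-fold, and ringed points are named.

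Both replicates carried the response. Of the probe sets called, all 408 and all 147 had both flu arrays beyond both wild type arrays, which held for 48.2% of all tested probe sets. Between the arrays of high control RNA (flu 1 minus wild type 2) the median difference was 1.14 for the higher and -0.87 for the lower probe sets. Between those of low control RNA (flu 2 minus wild type 1) it was 1.18 and -0.94, so the size was alike at both levels. The calls used these same arrays, so this is a description of size. The counts depended on having both replicates: without 1 array, between 198 (without flu 2) and 248 (without flu 1) probe sets were called higher, 224 without wild type 1 and 230 without wild type 2. Between 41 (without wild type 1) and 80 (without flu 1) were called lower, 58 without flu 2 and 65 without wild type 2. The control probe set for 25S ribosomal RNA read 176 and 245 in wild type and 780 and 313 in flu, and its part in these results was not tested.

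**Figure D2:**
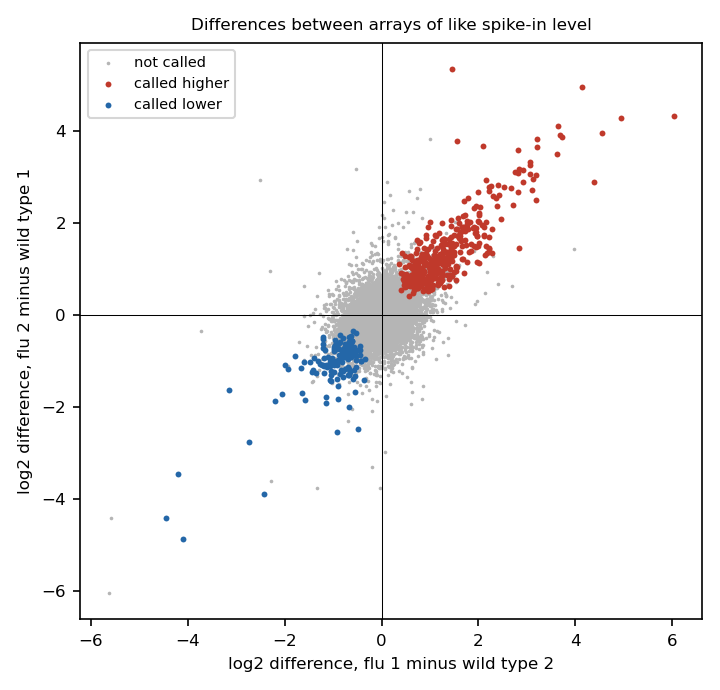
Each point is a tested probe set, with the log2 difference between the arrays of high control RNA (flu 1 minus wild type 2) on the x axis and between those of low control RNA (flu 2 minus wild type 1) on the y axis. All 408 probe sets called higher (red) lie in the upper right and all 147 called lower (blue) in the lower left part of the plot.

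Functions were read from 57 groups of genes formed from gene symbols, with 620 loci in the annotation. Of these, 400 were measured, and 25 were called higher (6.25%) and 8 lower (2%). Over all 7717 loci with a probe set of their own, 197 were higher (2.55%) and 69 lower (0.894%). The group members were chosen with earlier results of these data known, and some are markers from work on flu itself. The higher shares in the groups are therefore not evidence about function. Only 1112 of the 7717 loci carried a symbol other than the locus name. Among called probe sets assigned to 1 gene, 32 of 200 higher and 12 of 70 lower ones did. Each group holds only members named in the annotation, so its counts do not describe a whole gene family. Of 39 groups with at least 3 measured members, 20 had 0 called. Most groups with at least 3 measured members are given by their counts and median difference, to be read against the median of -0.04 over all probe sets.

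**Figure D3:**
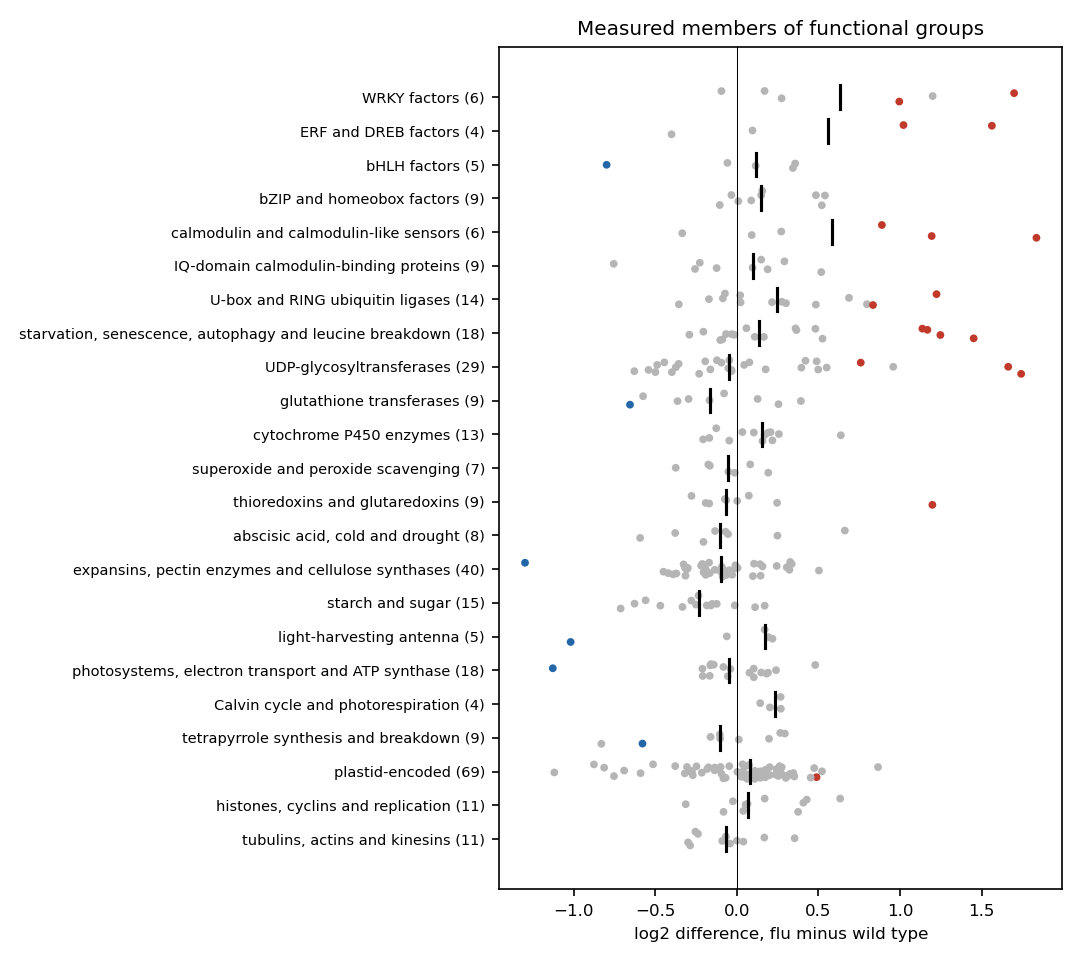
Each point is 1 measured member of a functional group (number measured in brackets), placed by its log2 difference, flu minus wild type. Red members were called higher, blue ones lower and grey ones neither, and the black bar is the group's median. Medians of WRKY factors, ERF and DREB factors and calmodulin-like sensors lie at 0.63, 0.56 and 0.58, while most other groups centre near 0.

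Of 6 measured calmodulin-like (CML) genes, whose products bind calcium and pass its signal to other proteins, 3 were called higher and 0 lower, with a group median of 0.58. CML37 (AT5G42380) read 238 and 165.1 in wild type and 642 and 778 in flu. The flu arrays were both far above the wild type ones, and the rise was 3.57-fold (log2 1.84 ± 0.29, SE, n = 2 per genotype, limma adjusted p 0.00109). CML38 (AT1G76650) read 402 and 309 against 674 and 964 (1.19 ± 0.31, limma adjusted p 0.041), and CML23 (AT1G66400) read 151 and 150 against 295 and 263 (0.89 ± 0.19, adjusted p 0.0147). In both the lower flu array stayed above the higher wild type array. The other members ranged from -0.33 (CML41) to 0.27 (CML42), with 95% intervals of -0.74 to 0.07 and -0.10 to 0.64. Without any 1 of the 4 arrays CML37 kept its call, while CML38 and CML23 lost theirs (highest adjusted p 0.332 and 0.154). CML38 was also not called without the intensity trend (0.138), with dim probe sets left in the fit (0.0952) or with the replicate number as a block.

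Of 5 measured glutamate receptor-like channels and 9 IQ-domain calmodulin-binding proteins, 0 were called, with medians of -0.05 and 0.10. GLR3.3, a channel known for wound signals between leaves, stood at -0.05 ± 0.19 (95% interval -0.45 to 0.35).

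Of 3 receptor-like kinases and their partners 1 was called (median -0.09). BIK1 (AT2G39660), a cytoplasmic kinase that acts just below immune receptors, read 607 and 537 in wild type and 942 and 1020 in flu. All flu values exceeded all wild type values, and the rise was 0.78 ± 0.19 (limma adjusted p 0.0276), lost without any 1 array (adjusted p 0.103 to 0.202) and without the trend (0.0795). The receptor kinases THE1 and FER, which sense the state of the cell wall, were at -0.27 ± 0.21 and -0.09 ± 0.20. PTI1-4, a kinase linked to oxidative signalling, was at 0.68 ± 0.19 and missed the call (adjusted p 0.057).

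Transcription factors gave some of the clearest single changes. STZ (AT1G27730, also ZAT10), a C2H2 zinc-finger repressor induced by many stresses, read 903 and 763 in wild type and 5779 and 6630 in flu. It was the third largest gain of signal among all called genes with a single assignment, 7.46-fold (2.90 ± 0.15, limma adjusted p 1.25e-08). GIS (AT3G58070), another C2H2 factor, which promotes trichome formation through gibberellin, moved the opposite way, from 594 and 829 to 316 and 312 (-1.16 ± 0.19, limma adjusted p 0.00158). Both calls held without any 1 array.

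Of 6 measured WRKY factors, a plant family tied to defence and leaf ageing, 2 were called higher and 0 lower, with a median of 0.63. WRKY53 (AT4G23810), a regulator of leaf senescence, read 857 and 604 against 2184 and 2498 (1.70 ± 0.19, limma adjusted p 3.5e-05). WRKY22 (AT4G01250), which acts in immune signalling, read 102 and 85.8 against 180 and 193 (1.00 ± 0.23, adjusted p 0.0221). WRKY53 kept its call without any 1 array, and WRKY22 lost it in each of these fits (adjusted p 0.0614 to 0.180) and without the filter (0.0778). WRKY6, also tied to senescence, read 112 and 106 against 239 and 262. Its arrays did not overlap either, but with 1.2 ± 0.35 (adjusted p 0.075) it was not called. WRKY20, WRKY47 and ZAP1 lay between -0.09 and 0.27.

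Of 4 measured ERF and DREB factors, which share the AP2 DNA-binding domain, 2 were called higher (median 0.56). DEWAX (AT5G61590), a repressor of wax synthesis genes, read 307 and 227 against 888 and 684 (1.56 ± 0.27, limma adjusted p 0.00281), and was not called without wild type 2 (adjusted p 0.0609). ORA47 (AT1G74930), a factor of jasmonate synthesis genes, read 90.9 and 75.1, below the level of the filter, against 134 and 210. It rose at least 1.85-fold (limma adjusted p 0.0491), a call lost without wild type 1, wild type 2 or flu 2 (highest adjusted p 0.443) and in 6 of the 9 other settings. TINY2 and tny stood at -0.40 and 0.10, with their flu arrays below the level of the filter.

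Of 5 measured bHLH factors 1 was called lower (median 0.12). It was MYC4 (AT4G17880), a factor of jasmonate responses. MYC4 read 997 and 976 in wild type and 577 and 558 in flu, a tight separation on both sides (-0.80 ± 0.17, limma adjusted p 0.0139), lost without any 1 array (highest adjusted p 0.120). Its close relative MYC3 read 604 and 611 against 571 and 597 (-0.06 ± 0.19, 95% interval -0.45 to 0.34). Among 9 bZIP and homeobox factors 0 were called (median 0.15). BZIP60, a factor of the unfolded protein response, read 1380 and 1436 against 2098 and 1943 but missed the threshold (0.52 ± 0.17, adjusted p 0.134). Of 10 MADS and GRAS factors 0 were called, with a median of 0.05.

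Protein turnover was represented by the U-box and RING ubiquitin ligases, of which 2 of 14 measured were called higher and 0 lower (median 0.25, with 10 of 14 above 0). PUB23 (AT2G35930) and PUB24 (AT3G11840) belong with PUB22 to a set of U-box ligases that dampen immune signalling. PUB23 read 127 and 103 against 244 and 293 (1.22 ± 0.23, limma adjusted p 0.00488), and PUB24 read 465 and 468 against 747 and 926 (0.83 ± 0.17, adjusted p 0.00889). PUB22 read 68.0 and 56.5 in wild type, below the level of the filter, against 95.5 and 122. Its rise was at least 0.25 on the log2 scale and was not called (adjusted p 0.264). Without wild type 2 or without flu 2 neither PUB23 (highest adjusted p 0.0832) nor PUB24 (0.152) was called, and without wild type 1 PUB24 was not. PUB24 lies 268 protein-coding genes from FLU on chromosome 3.

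Lipid and jasmonate genes were thinly covered, with 3 measured members (median 0.41). DLAH (AT1G30370), a DAD1-like acylhydrolase, which frees fatty acids from membrane lipids, read 76.6 and 62.2 in wild type, below the level of the filter, and 472 and 674 in flu. It rose at least 6.23-fold (limma adjusted p 3.12e-06) and kept its call without any 1 array. OPCL1, which activates a jasmonate precursor in the peroxisome, read 688 and 661 against 734 and 1093 (0.41 ± 0.18, adjusted p 0.292). JMT, which makes methyl jasmonate, was at -0.28 ± 0.33.

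Among other hormone groups the changes were few. Of 8 measured genes of abscisic acid, cold and drought 0 were called, with a median of -0.10. The dehydrin gene COR47 read 4254 and 4055 against 3996 and 4005, a difference whose 95% interval runs from -0.35 to 0.24. Of 7 auxin response genes 0 were called (median 0.12). Of 6 genes of cytokinin, gibberellin and brassinosteroid 1 was called higher and 0 lower (median -0.20). The called gene was EXO (AT4G08950), a growth-promoting gene induced by brassinosteroid, with 3013 and 2720 against 3818 and 4953 (0.60 ± 0.15, limma adjusted p 0.0408). EXO lost its call without wild type 1, wild type 2 or flu 2 (highest adjusted p 0.397), without the trend (0.140) and without the filter (0.0787). The cytokinin response regulators RR16 and ARR15 stood at -0.60 ± 0.18 and -0.45 ± 0.18, and the gibberellin receptor GID1A at -0.55 ± 0.19. Their flu arrays lay below those of wild type, but none was called (adjusted p 0.0868, 0.228 and 0.155). ARL (AT2G44080), which promotes organ growth, read 354 and 332 against 818 and 784 (1.22 ± 0.18, adjusted p 0.000786). Its flu signals were more than double those of wild type in both replicates, and the call held without any 1 array.

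**Figure D4:**
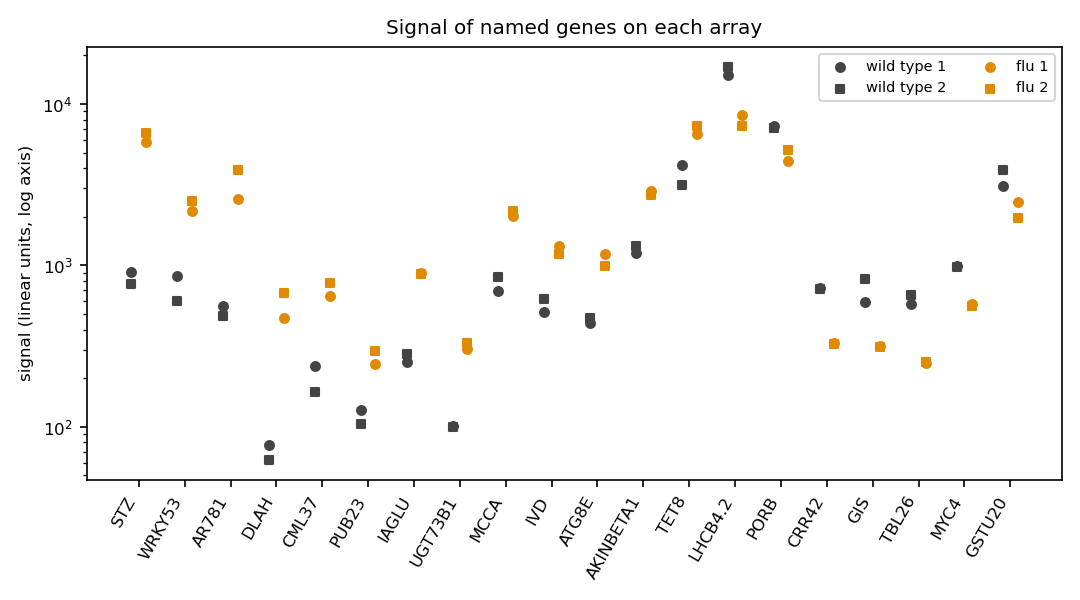
Signal (log axis) of 20 named genes on wild type 1 and 2 (dark circle and square) and flu 1 and 2 (orange circle and square). In each gene shown both flu arrays lie on one side of both wild type arrays, from STZ (903 and 763 against 5779 and 6630) to GSTU20 (3107 and 3872 against 2483 and 1956). The genes were picked from called ones, and every called probe set is separated in this way.

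UDP-glycosyltransferases attach sugars to hormones, flavonoids and foreign compounds. Of 29 measured, 3 were called higher and 0 lower, and the median was -0.05, near the -0.04 of all probe sets. IAGLU (AT4G15550), named for its action on the auxin indole-3-acetate, read 252 and 284 against 903 and 887 (1.74 ± 0.16, limma adjusted p 4.68e-06). UGT73B1 (AT4G34138) read 101 and 99.6 against 304 and 332 (1.66 ± 0.22, adjusted p 0.000262). Both stood at about the same level on the 2 arrays of a genotype and kept their calls without any 1 array. UGT76C2 (AT5G05860), which inactivates cytokinin, read 349 and 427 against 594 and 718 (0.76 ± 0.18, adjusted p 0.0246), lost without any 1 array (highest adjusted p 0.260) and without the trend (0.0627). At the other end UGT84A4 was at -0.63 ± 0.28 and UGT88A1 at -0.54 ± 0.15, and neither was called (limma adjusted p 0.289 and 0.059). UGT88A1 (AT3G16520) lies beside AT3G16530, which is 270 protein-coding genes from FLU on chromosome 3.

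Of 9 measured glutathione transferases, which couple glutathione to reactive compounds, 0 were higher and 1 lower (median -0.17). GSTU20 (AT1G78370) read 3107 and 3872 against 2483 and 1956 (-0.65 ± 0.16, limma adjusted p 0.0304), and was not called without wild type 2 or flu 2 (highest adjusted p 0.318), without the trend (0.112) or without the filter (0.0543). Of 13 cytochrome P450 genes 0 were called (median 0.16). DTX50 (AT5G52050), an efflux carrier of the MATE type that exports abscisic acid, read 49.7 and 33.6 in wild type, below the level of the filter, and 163 and 180 in flu. Its rise was at least 1.89-fold (limma adjusted p 0.000204), and it was called without any 1 array.

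Of 7 measured genes of peroxide removal and ascorbate and glutathione recycling or synthesis, 0 were called (median -0.05). No superoxide dismutase or catalase gene was among them. Peroxiredoxin PRXIIF, of mitochondria, had the lowest value with 2788 and 2588 against 2071 and 2073 (-0.37 ± 0.13, limma adjusted p 0.155). The chloroplast ascorbate peroxidases TAPX and SAPX were at -0.17 ± 0.14 and -0.01 ± 0.19, with 95% intervals of -0.47 to 0.12 and -0.43 to 0.40, and GR1, a glutathione reductase, was at 0.08 ± 0.15 (-0.24 to 0.41). None of these intervals reaches a 2-fold rise. Of 9 thioredoxins and glutaredoxins (median -0.06) 1 was called. GRX480 (AT1G28480), which binds TGA transcription factors, read 177 and 162 against 314 and 479 (1.2 ± 0.26, adjusted p 0.014). GRX480 was not called without wild type 1, wild type 2 or flu 2 (highest adjusted p 0.209), nor without the trend (0.0504).

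At membranes, TET8 (AT2G23810), a tetraspanin known from vesicles released by plant cells, was called higher out of 8 measured, whose median was -0.15. It was abundant, with 4169 and 3127 in wild type and 6491 and 7293 in flu, all flu values above all wild type values (0.93 ± 0.15, limma adjusted p 0.00155), and the call held without any 1 array. TET9 read 56.6 and 38.5 in wild type, below the level of the filter, against 88.3 and 137. Its rise was at least 0.28 on the log2 scale and was not called (adjusted p 0.109). Of 5 chaperone genes (median -0.13) 1 was lower. ATERDJ3B (AT3G62600), a co-chaperone in the endoplasmic reticulum, read 2212 and 2140 against 1297 and 1401 (-0.69 ± 0.16, adjusted p 0.0211), lost without any 1 array (highest adjusted p 0.185) and without the trend (0.0707).

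Genes that leaves use when carbon is short formed the group with the most called members by number, but not by share. Of the calmodulin-like genes 3 of 6 were called, and over all loci 2.55% were higher. Of 18 measured genes of starvation, senescence, autophagy and leucine breakdown 4 were higher and 0 lower, with a median of 0.14. MCCA (AT1G03090) and IVD (AT3G45300) encode enzymes of leucine breakdown in mitochondria. MCCA read 696 and 841 against 2022 and 2165 (1.45 ± 0.26, limma adjusted p 0.00326), and IVD read 516 and 620 against 1320 and 1173 (1.14 ± 0.25, adjusted p 0.0167). The flu signals of both lay well above the wild type signals. MCCB, which encodes the other subunit of the carboxylase that MCCA belongs to, read 1023 and 1224 against 1400 and 1472 (0.36 ± 0.22, 95% interval -0.10 to 0.82) and was not called.

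AKINBETA1 (AT5G21170), a subunit of the energy-sensing kinase SnRK1, read 1195 and 1319 against 2898 and 2742 (1.17 ± 0.21, limma adjusted p 0.00411). ATG8E (AT2G45170), a ubiquitin-like protein of autophagosome membranes, read 437 and 474 against 1179 and 990 (1.25 ± 0.31, adjusted p 0.036). The other 8 measured members of the ATG8 family ranged from -0.10 to 0.37 and were not called. The calls of the group rested on single arrays more than the sizes did: without wild type 1, 0 of the 18 were called, and without wild type 2, 2 were. IVD and ATG8E were also not called without the trend (adjusted p 0.0759 and 0.127), and ATG8E not without the filter (0.0842). In those fits and the ones without a flu array MCCA stayed between 1.31 and 1.59, AKINBETA1 between 1.10 and 1.24, IVD between 1.00 and 1.27 and ATG8E between 1.12 and 1.37.

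Of 15 measured genes of starch and sugar metabolism 0 were called, while 2 of 15 lay above 0 (median -0.23). APL3, of starch synthesis, had the lowest value, with 173 and 172 against 115 and 96.7 (-0.71 ± 0.24, limma adjusted p 0.143), and the sugar carrier SWEET11 was at -0.01 ± 0.14.

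Few photosynthesis genes were called. Of 18 measured nuclear genes of photosystems, electron transport and ATP synthase 0 were higher and 1 lower (median -0.05). That was CRR42 (AT5G20935), needed for assembly of the plastid NDH complex, with 719 and 718 in wild type and 330 and 327 in flu. Replicates were almost identical within each genotype (-1.13 ± 0.17, limma adjusted p 0.000589), and the call held without any 1 array. The other 4 measured CRR genes, named for the same mutant screen, lay between -0.21 and 0.24.

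Of 5 measured antenna genes 1 was lower and 0 higher (median 0.17). LHCB4.2 (AT3G08940), which encodes a form of the minor antenna protein CP29 of photosystem II, read 15029 and 17011 in wild type and 8552 and 7289 in flu (-1.02 ± 0.12, limma adjusted p 4.51e-05). Its 2 homologues stood at 0.19 ± 0.10 (LHCB4.1) and 0.22 ± 0.18 (LHCB4.3). LHCB4.1 read 16389 and 17417 against 20218 and 18469, so the flu arrays lay above those of wild type there. LHCB4.2 lies 588 protein-coding genes from FLU. The 4 Calvin cycle and photorespiration genes, RCA and HPR among them, were not called and stood between 0.14 and 0.27 (median 0.24).

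Of 9 measured genes of tetrapyrrole synthesis and breakdown, the pathway that FLU regulates, 1 was lower and 0 higher (median -0.10). PORB (AT4G27440), which turns protochlorophyllide into chlorophyllide in light, read 7263 and 7074 against 4451 and 5182 (-0.58 ± 0.12, limma adjusted p 0.0142), and lost its call without wild type 1, wild type 2 or flu 1 (highest adjusted p 0.194) and without the trend (0.0908). HEMA2, a form of the glutamyl-tRNA reductase that FLU binds in its other form, read 504 and 400 against 272 and 235. The genotypes did not overlap but the gene was not called (-0.83 ± 0.25, adjusted p 0.0913). CHLM, a step before protochlorophyllide, was at 0.29 ± 0.13 (adjusted p 0.281). EX1 (AT4G33630), the gene of EXECUTER1, read 606 and 772 against 772 and 771 (0.17 ± 0.17, adjusted p 0.719).

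Plastid-encoded transcripts, 69 of them measured, centred at 0.08, with 1 called higher and 0 lower. The called one was rps19, a ribosomal protein gene, with 5422 and 4924 against 7290 and 7210 (0.49 ± 0.11, limma adjusted p 0.0237), lost without any 1 array (highest adjusted p 0.177), without the trend (0.126) and without the filter (0.0835). The lowest was petN at -1.12 ± 0.30 (adjusted p 0.0544). Most plastid RNAs lack the poly-A tails on which such labelling primes, and the effect of this on the values was not tested.

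Cell wall and growth genes showed few calls. Of 40 measured expansins, pectin enzymes, cellulose synthases and related wall genes 0 were higher and 1 lower, and 12 of 40 lay above 0 (median -0.10). TBL26 (AT4G01080), of a family that acetylates wall polymers, read 574 and 657 against 248 and 252 (-1.30 ± 0.25, limma adjusted p 0.00641). Its flu signals agreed closely, and the call was lost without wild type 2, flu 1 or flu 2 (highest adjusted p 0.0828). XTH18, a touch-induced xyloglucan enzyme, read 252 and 162 against 291 and 591 and just missed the call (1.04 ± 0.28, adjusted p 0.0539), the rise lying mostly in flu 2. Histones, cyclins and replication genes (11 measured, median 0.07) and tubulins, actins and kinesins (11, median -0.07) had 0 called, with HTB4, a histone H2B gene, at 0.04 ± 0.14.

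Further groups with 0 called members were the signalling peptide precursors (8 measured, median -0.06), nitrogen, sulfur and phosphate genes (10, median -0.20), beta-glucosidases and glucosinolate genes (14, median -0.04), phenylpropanoid and flavonoid genes (7, median -0.05) and the defence proteins of the thionin and defensin kind (12, median 0.04). BCAT4, the first step of methionine-derived glucosinolates, read 3165 and 3546 against 2457 and 2176 (-0.53 ± 0.16, limma adjusted p 0.0825). BCAT4 (AT3G19710) lies between AT3G19520 and AT3G20240, which are 603 and 683 protein-coding genes from FLU. The plant defensin LCR69 was at -0.16 ± 0.16. Its 95% interval ran from -0.51 to 0.19, while that of PDF1.4, the highest of the defence group at 0.94 ± 0.41 with its wild type arrays below the level of the filter, ran from 0.07 to 1.80 and so includes changes above 2-fold.

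Genes used as markers of singlet oxygen in earlier work on flu were 3 of 4 higher, with a median of 1.22. They were chosen in the same mutant, so this is not independent evidence. Beside STZ these were AT3G01830, with 569 and 506 against 1165 and 1431 (1.27 ± 0.22, limma adjusted p 0.00318), and AT5G64870, with 256 and 155 against 351 and 583 (1.18 ± 0.28, adjusted p 0.0251). The latter lost its call without wild type 2 or flu 2 (highest adjusted p 0.307), without the trend (0.0869) and without the filter (0.0710). AT3G01830 lost its call without wild type 2 or flu 2 (0.0654).

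Of other called genes with a symbol, AR781 (AT2G26530) read 557 and 485 against 2577 and 3905, and ZCF37 (AT1G59590) read 331 and 269 against 536 and 585. Both were above wild type on both flu arrays (2.61 ± 0.18 and 0.91 ± 0.22, limma adjusted p 2.13e-07 and 0.0265). AR781 kept its call without any 1 array, and ZCF37 lost it each time (highest adjusted p 0.211), as well as without the trend (0.0791) and without the filter (0.0588).

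The largest changes of linear signal were ranked among called probe sets assigned to 1 gene. First among the gains, AT3G15450 read 4747 and 4643 in wild type and 12730 and 11576 in flu, a gain of 7458 units (1.37 ± 0.26, limma adjusted p 0.0058). AT4G27280 read 2685 and 2206 against 9254 and 10420, a gain of 7392 units (2.01 ± 0.13, adjusted p 1.4e-07). STZ followed with 5371 units, AT1G76600 with 3346 (from 486 and 458 in wild type) and AT3G57450 with 3329 (from 2671 and 2188). AT3G15450 was not called without wild type 1, wild type 2 or flu 1 (highest adjusted p 0.0636), nor without the intensity trend (0.0563), and the other 4 were. Among the same probe sets the 5 largest losses were those of LHCB4.2, whose mean fell by 8100 units, AT3G16370, AT3G10860, AT3G16530 and PORB. Probe set 257008_at, outside this ranking because the annotation does not list it, lost more signal than any of them. AT3G16370 read 11191 and 10808 against 5445 and 6730, AT3G10860 read 6453 and 5568 against 3461 and 3347, and AT3G16530 read 6444 and 5035 against 2859 and 3627. AT3G16530 lost its call without wild type 1 or flu 1 (highest adjusted p 0.232) and without the trend (0.0841). Of these 5 losses 4 lie within 1000 protein-coding genes of FLU, and 1 of the 5 gains, AT3G15450, does.

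Lower genes were dense in that region, although 40 of the 69 lower loci lie outside it. Among 1573 tested loci of chromosome 3, which carries FLU, 34 were lower (2.16%), against 0.365% to 0.802% on the other chromosomes. Within 1000 annotated genes of FLU 29 of 623 were lower (4.65%), against 5 of 950 farther along chromosome 3 (0.526%) and 40 of 7025 in the rest of the nuclear genome (0.569%), which includes those 950. The share was 4.73% within 250 genes, 5.63% from 250 to 500 and 4.17% from 500 to 1000 genes away, then 0.366% from 1000 to 1500. Of the higher genes 17 of 623 lay near FLU (2.73%), against 2.55% elsewhere. By distance their share was 1.78% within 250 genes, 5.63% (8 of 142) from 250 to 500, 1.92% from 500 to 1000 and 1.83% from 1000 to 1500 genes away.

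Genes of the region include NAI2 (AT3G15950), a protein of endoplasmic reticulum bodies, which read 199 and 274 in wild type and 66.2 and 60.3 in flu, below the level of the filter there. The carboxypeptidase-like SCPL49 (AT3G10410) read 2379 and 2077 against 1412 and 1355 (-0.68 ± 0.17, limma adjusted p 0.0327), and SDRB (AT3G12800), an enzyme of peroxisomal fatty acid breakdown, read 1990 and 1924 against 1246 and 1449 (-0.54 ± 0.14, adjusted p 0.045). Both calls were lost without any 1 array and without the trend (adjusted p 0.104 and 0.0951). NAI2, AT3G19515 and AT3G08670 were named after their values were seen. The flu allele came from Landsberg erecta, and how much of that genome is left around FLU after 5 backcrosses, and its part in these lower signals, was not tested. Of the 13 named genes called lower, 6 lie in the region, and with the region left out of the adjustment 383 probe sets were higher and 117 lower.

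**Figure D5:**
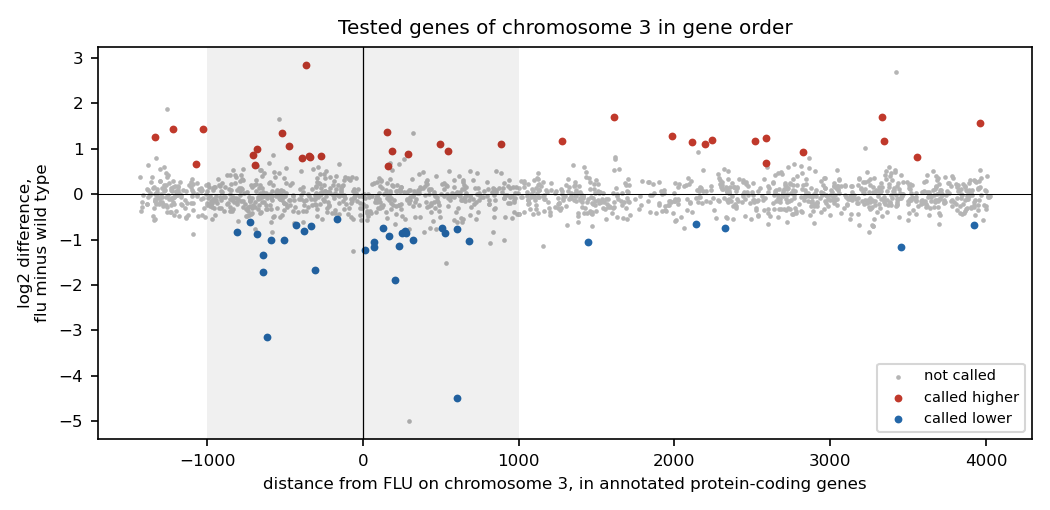
Each point is a tested gene of chromosome 3, placed by the number of annotated protein-coding genes that separate it from FLU (x axis) and by its log2 difference, flu minus wild type (y axis). Genes called lower (blue) gather in the shaded window of 1000 genes on either side, which holds 29 of the chromosome's 34, while genes called higher (red) spread along its length.

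Called genes also lay beside each other elsewhere. Of 194 higher loci with a known place, 22 (11.3%) had another higher locus within 5 annotated genes, compared with 7.05% of all 7613 tested loci, a modest excess. The longest run was AT1G72900, AT1G72920, AT1G72940 and AT1G72950, 4 neighbours on chromosome 1 that stood 1.86 to 2.91 higher. BIK1 lay beside AT2G39650 (2.01), CML38 near AT1G76600 (3.0) and UGT73B1 near AT4G34150 (0.59). Of the 69 lower loci 8 (11.6%) had a lower neighbour, against 2.76% of all, and these pairs, such as AT3G14740 with AT3G14760, were all near FLU. Neighbouring genes of one family can share probes, and this was not tested.

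Higher genes were also short. The annotated gene length had a median of 1717 bp for the higher loci (194 of 197 with a length), 1997 bp for the lower (69) and 2329 bp for all tested loci. No test was made of this difference, and length was not related to the size of the response.

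Many of the called probe sets have no gene name here. Of the 408 probe sets called higher 200 were assigned to 1 gene, 8 to several and 200 were not listed in the annotation, and of the 147 lower 70 were assigned to 1 gene and 77 were not listed. Among the unlisted ones, probe set 248799_at read 44.4 and 24.6 in wild type and 751 and 862 in flu, at least 3.15 higher on the log2 scale (limma adjusted p 1.4e-07). Probe set 245250_at read 44.4 and 54.9 against 967 and 1375, at least 3.67 higher (2.21e-09). In the other direction 257008_at read 13770 and 14940 against 687 and 645 (-4.43 ± 0.18, adjusted p 1.41e-09), and 258434_at read 5409 and 5441 against 294 and 497 (-3.83 ± 0.22, adjusted p 2.79e-08). These were picked by size among called, unlisted probe sets, so their rank is part of the choice. Unlisted probe sets are outside the counts by distance from FLU, and whether any of them lie near FLU was not tested.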

How the data were processed

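RNA of rosette leaves was measured on ATH1 arrays, 2 per genotype. The deposited table holds linear intensity values per probe set, which the authors made with GCOS 1.2 and MAS5, per the submitters' processing notes. Its settings are not stated by the labels, and the table has no detection calls. MAS5 scales each array to a common level, so differences are relative to the whole array. Signals were log2-transformed with no further normalization, 64 control probe sets were removed, and the filter kept 14435 probe sets (63.5%). One limma 3.58.1 model in R 4.3.3, with a mean for each genotype, covered the 10 arrays (5 residual and 10.0 prior degrees of freedom). Its variances were moderated along an intensity trend, and p-values were adjusted by Benjamini-Hochberg over all kept probe sets. The other 6 arrays, of EXECUTER lines, served only to estimate the spread. The fit was also run on simulated data with independent noise on each array, and no result given here rests on that run. Where a genotype lay below the filter level (the 40th percentile) on both arrays, a fold is a bound against that level. It is taken between means and leaves out their error.

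The annotation gave 13513 probe sets 1 gene, 503 several, and left 8730 unlisted. RefSeq names and gene order (assembly TAIR10.1) matched 13436, and the array table names no build, so no coordinates are given. Genes named were up to 4 called members per direction of each functional group, or the 2 brightest where none was called, the 15 highest and 12 lowest called genes with a symbol at or above the median signal of kept probe sets, the 5 largest gains and losses of signal, and EX1. Values of uncalled relatives of those genes, NAI2, AT3G19515, AT3G08670 and the genes beside called ones were added after their values were seen. The members and the gene lists were chosen with earlier results of these data known. Alternatives were another normalization, filter, variance model, offset, set of arrays and block, and leaving out each array. Sequences were not used here. Tables were handled with pandas 2.3.3 in Python 3.11.15 and figures drawn with matplotlib 3.10.9.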

Additional observations from a re-analysis of the deposited data

How the results depend on the processing

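None of the 46 called named genes changed sign under any alternative, but this was largely fixed in advance. Their flu and wild type arrays did not overlap, so leaving out 1 array cannot reverse a difference. Several other settings change only the variance or the adjustment and leave the difference as it was. Of the 46 genes, 27 lost no call in the 9 settings other than leaving out an array. Genes that a setting left out are counted among these. Without the genes near FLU 37 of the named genes kept their call and 1 lost it, and the rest were not tested. With the filter at the 60th percentile 43 kept it and 1 lost it. The counts moved with the setting. Probe sets called lower numbered 236 (495 higher) when only the 4 arrays compared were fitted and 239 (491 higher) with the level of the control RNA as a block, against 147, and those lower by at least 2-fold numbered 36 with the filter at the 60th percentile and 33 with log2(signal + 50), against 55. Without 1 array the higher count ran from 198 to 248, the lower count from 41 to 80, the count at least 2-fold higher from 181 to 223 and at least 2-fold lower from 31 to 62. All 4 counts stayed within 1.5 times under quantile normalization, without the filter, without the intensity trend and with the replicate block. Without the trend 289 were higher and 103 lower, and without the filter 315 and 108. These settings ended the calls of 18 (adjusted p 0.0504 to 0.140) and 9 named genes (0.0543 to 0.139), 8 of them in both. The cause was not tested. ORA47 was called in the fewest settings. The labels number the replicates 1 and 2, but same-numbered arrays of flu and wild type did not deviate together (correlation -0.09). Those of ex1/flu and ex2/flu, which served only to estimate the spread, did (0.43). Every other pair of genotypes lay between -0.09 and 0.09. What the numbers stand for was not tested. With the replicate block 399 probe sets were higher and 150 lower, and CML38 and ORA47 were no longer called. The alternative that leaves genes near FLU out of the adjustment was chosen after seeing the data. Signal over background limits what can be said of the 36 higher and 10 lower probe sets that lay below the filter level in one genotype, for which only bounds are known, and of 2 called higher that lay below it in both, for which no bound can be given.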

Other observations

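Some pathways tied to stress or light in other settings were measured through a few genes each, and none of these was called. The external NAD(P)H dehydrogenases of mitochondria NDB2 and NDB1 read 654 and 688 (NDB2) and 435 and 513 (NDB1) in wild type and 530 and 463, and 480 and 408, in flu. NDB2 was thus lower on both flu arrays, but was not called (-0.44 ± 0.19, n = 2 per genotype, 95% interval -0.84 to -0.04, limma adjusted p 0.28). HYH, a light-signalling bZIP factor, read 830 and 939 against 1304 and 1171, with no overlap and no call (0.48 ± 0.20, 95% interval 0.05 to 0.92, limma adjusted p 0.263). EIN3, the central factor of ethylene signalling, stood at 0.13 ± 0.18 (95% interval -0.25 to 0.50), and PRXR1, an abundant peroxidase gene, at 0.15 ± 0.11 (-0.09 to 0.40). The plastid protease subunit CLPP4 and the plastid division gene FTSZ2-1 were at -0.14 ± 0.12 and 0.03 ± 0.14.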
